A study of Arabidopsis thaliana with 12 samples.

Results

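The genes described here build and remodel the polysaccharides of the plant cell wall. They are the measured members of the TBL, XTH and CSL families, found by symbol (TBL, XTH, CESA, FLA or GAUT followed by a number, or CSL followed by a letter and a number) among the probe sets paired with exactly 1 gene. There were 40 such genes among 16746 probe sets with 1 gene, at 40 different loci. The TBL family had 23 measured members of the 41 symbols in the RefSeq gene table, the XTH family 9 of 30 and the CSL family 8 of 26. The CESA cellulose synthases, the FLA arabinogalactan proteins and the GAUT pectin galacturonosyltransferases gave 0 members by this rule and are not analysed here. Another 3 probe sets matched a TBL gene together with further genes and were left out.

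TBL (TRICHOME BIREFRINGENCE-LIKE) proteins are Golgi enzymes, most of those studied being acetyltransferases that add acetyl groups to xylan, mannan, xyloglucan or pectin before these reach the wall. XTH (xyloglucan endotransglucosylase/hydrolase) enzymes act in the wall itself, where they cut xyloglucan chains that coat cellulose and rejoin the ends or release them. CSL (cellulose synthase-like) proteins make the backbones of other wall polymers: CSLA proteins make mannan, CSLC proteins make the glucan backbone of xyloglucan, and CSLD proteins act in tip growth and new cross walls. Auxin is known for loosening walls in growing shoots and for slowing elongation of roots, and some XTH genes of the root are known to respond to auxin.

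Whole wild-type Arabidopsis thaliana seedlings of the Col-0 ecotype, 7 days old per the sample labels, were shaken in liquid medium without any transgene or mutation. The auxin was indole-3-acetic acid (IAA), the chief auxin that plants make, given at 1 µM in DMSO for 15 min or for 3 h, and the matching mock was 0.1% DMSO for 15 min or for 3 h. There were 3 arrays per group, 12 in all, with numbers 1 to 3 that stand for repeats of the experiment. RNA came from whole seedlings, so in every result below fewer cells of a type and less RNA per cell cannot be told apart. Sample titles give the early time as 15 min, whereas the treatment protocol in the labels lists other early times, so that time is uncertain.

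Levels are log2 values made with RMA, a method that combines the probes of a gene after background correction and normalisation. Array medians were 4.72 to 4.79. Arrays numbered 2 and 3 had a middle spread (the interquartile range of all rows) of 3.89 to 3.92. It was narrower on the 4 arrays numbered 1, at 3.46 for IAA 15 min, 3.53 for mock 15 min, 2.88 for IAA 3 h and 3.79 for mock 3 h. Values at 3 h that moved by over 1.5 times without the arrays numbered 1 are therefore given both ways. The auxin marker genes GH3.3, GH3.1, LBD29 and IAA29 rose after 3 h of IAA by 3.64, 3.51, 3.52 and 2.73 on the log2 scale, with limma adjusted p of 0.00227, 3.23e-05, 0.0223 and 0.00081, and their groups did not overlap. A gene counts as measured here where a probe set was paired with it alone. Of 5 root and 6 leaf markers 1 each was measured, and both were bright: PYK10 of the root averaged 11.3 and RCA of the leaf 10.54 over the 12 arrays. The 3 measured pollen genes averaged 1.67 to 2.23, all below the lower quartile of row means, and 0 of 8 developing xylem markers were measured.

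The wall genes covered most of the range of the arrays. Mean levels over the 12 arrays ran from 2.17 for TBL15 to 8.20 for TBL45 in the TBL family, with a family median of 5.06. In the XTH family they ran from 2.06 for XTH19 to 6.43 for XTH32, with a median of 3.69. Among the CSL genes they ran from 2.43 for CSLA01 to 8.86 for CSLC04, with a median of 6.01. The median over all tested rows was 4.33. Of the 40 genes, 15 lay below it and 11 lay above the third quartile. Below the lower quartile were 2 TBL, 3 XTH and 1 CSL genes. Probe sets differ in how brightly they bind, so these levels place a gene only roughly against another gene.

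**Figure D1:**
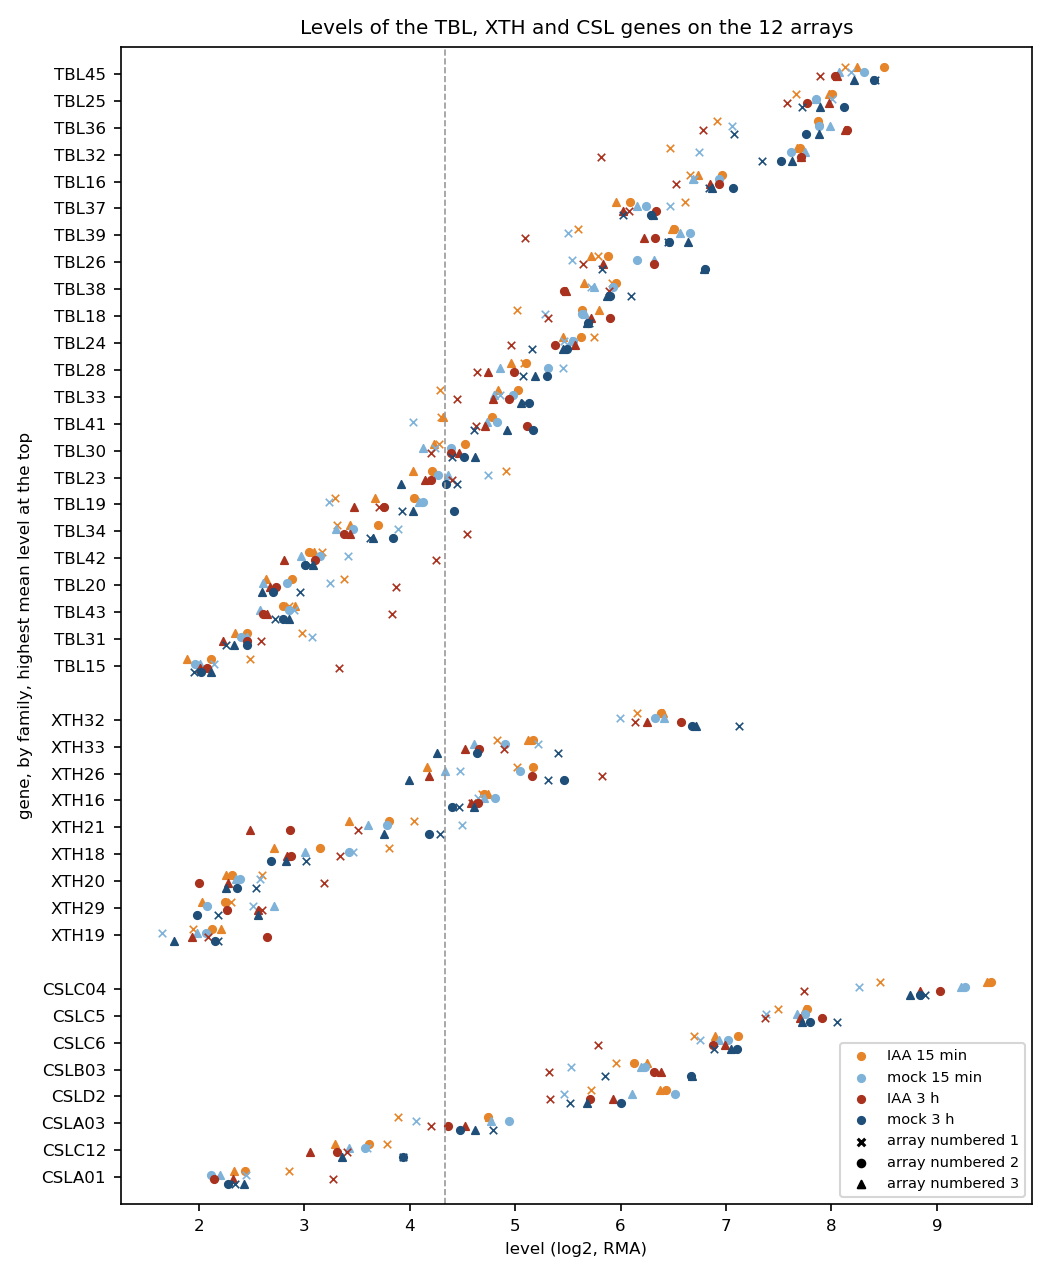
Level of each wall gene on each array (x axis, log2 RMA value), with genes grouped by family down the page and sorted by mean. Colours mark the 4 groups and symbols the array number, and the dashed line is the median row mean of 4.33. Arrays numbered 1 (crosses) often sit away from the other arrays, above them for dim genes such as TBL15 and below them for bright genes such as TBL32.

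After 3 h of IAA the change of the XTH root gene XTH21 was the largest among the 40 genes, at 2.18-fold lower than in mock. In the fit without a block, 0 of the 40 genes passed (limma, Benjamini-Hochberg adjusted p under 0.05), against 0.24% of the 17504 tested rows (0.0686% lower with IAA). With the array number as a block, 1 gene passed, XTH21, lower with IAA, against 0.514% of rows (0.257% lower). The same gene alone passed without the arrays numbered 1, when 0.931% of rows passed (0.428% lower). At an unadjusted p under 0.05 there were 5 genes without the block, XTH21, XTH32, CSLC12, TBL28 and TBL45. That is 12.5% of the 40, against 4.86% of rows in either direction. With the block the count was 12 genes, 30.0% against 10.8% of rows in either direction. All of those 5 and all of those 12 were lower with IAA. The share of rows that were lower at this threshold was not counted.

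Of the 40 genes, 25 were lower in IAA than in mock at 3 h, with a median log2 change of -0.08, whereas over all tested rows 40.6% were lower and the median was 0.06. Without the arrays numbered 1, 27 genes were lower with a median of -0.11, against 50% of rows and a median of 0. The IAA and mock values did not overlap for 7 genes, all lower with IAA: XTH21, XTH32, TBL19, TBL28, TBL33, TBL39 and TBL45. That is 17.5% of the 40, against 4.65% of rows that lay apart in that direction. None of the 40 lay apart in the higher direction, against 6.56% of rows. All 3 same-numbered differences were negative for 15 genes, 37.5% against 12.5% of rows, and all were positive for 2 genes, TBL20 and XTH18, 5.0% against 17.0% of rows. These counts are descriptions, and whether the wall genes differ from other rows was not tested.

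**Figure D2:**
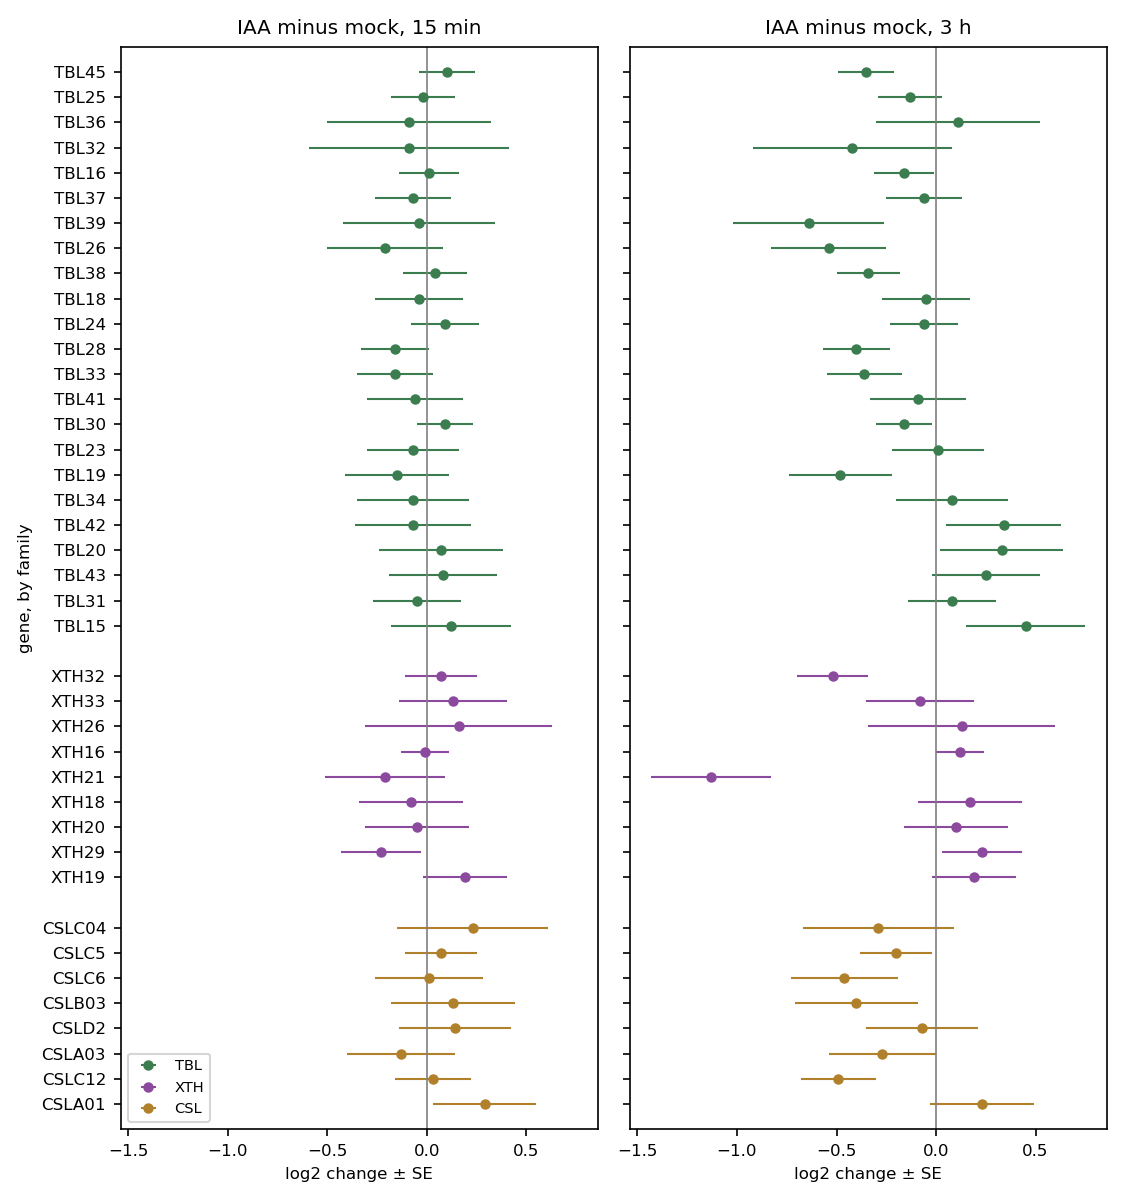
Log2 change, IAA minus mock, of each wall gene at 15 min (left) and 3 h (right), as points with the standard error of the limma fit without a block. Genes are grouped by family and sorted by mean level. At 15 min all points lie between -0.23 and 0.29, and at 3 h XTH21 at -1.13 stands farthest from 0.

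XTH21 (AT2G18800) encodes an endotransglucosylase/hydrolase that is known from the primary root. Its levels after 3 h were 3.51, 2.86 and 2.48 on the IAA arrays numbered 1 to 3, against 4.29, 4.18 and 3.76 on the mock arrays. Every IAA value lay below every mock value, and the same-numbered differences were -0.78, -1.31 and -1.29. The means were 2.95 ± 0.52 with IAA and 4.08 ± 0.28 with mock (SD, n = 3 each). The log2 change was -1.13 with an SE of 0.30 and a 95% interval of -1.78 to -0.47 in the fit without a block. With the array number as a block the SE was 0.14.

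The call for XTH21 differed between fits. All 4 groups share the block, although the numbers were not taken as pairing mock arrays across times. Its limma adjusted p was 0.313 without the block, 0.0074 with it and 0.0197 without the arrays numbered 1, and it ran from 0.0074 to 0.892 over the 20 alternatives set out for it. The block fit was also repeated with each of the 12 arrays left out, which was chosen after the data were seen. XTH21 then passed in 9 of 12 fits, with changes of -1.25 to -1.04 over all 12. The change stayed at -1.13 in every fit that left out a 15 min array, since those arrays do not enter the 3 h difference. XTH21 passed without the IAA 3 h array numbered 1 (limma adjusted p 0.00712). XTH21 also passed without the mock 3 h array numbered 1 (0.00793) or 3 (0.0455). In a further block fit without all 4 arrays numbered 1 its change was -1.30 (limma adjusted p 0.000795). It did not pass without the IAA 3 h array numbered 2 (adjusted p 0.0611), the IAA 3 h array numbered 3 (0.0613) or the mock 3 h array numbered 2 (0.0606). The IAA values numbered 2 and 3 lie close to the lower quartile of their arrays, 2.72 and 2.74, where RMA compresses differences.

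At 15 min XTH21 had levels of 4.04, 3.80 and 3.42 with IAA, against 4.50, 3.78 and 3.60 with mock. The groups overlapped, and the change was -0.21 with a 95% interval of -0.86 to 0.45. The change at 3 h was more negative than that at 15 min by 0.92 on the log2 scale (SE 0.42), which did not pass (limma adjusted p 0.999, or 0.398 with the block). A different response at the later time is thus not shown by this test. Of 5 root markers only PYK10 was measured, a bright gene with a mean of 11.3 over the 12 arrays. PYK10 had a change of -0.19 at 3 h (95% interval -0.53 to 0.14) and of -0.01 without the arrays numbered 1. The root hair genes EXPA7 and EXPA18 had changes of -0.06 and -0.34, with all 3 differences negative for EXPA18. The values were -0.25 for EXPA7 and -0.46 for EXPA18 without the arrays numbered 1. The part of root content in the XTH21 value was not tested.

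**Figure D3:**
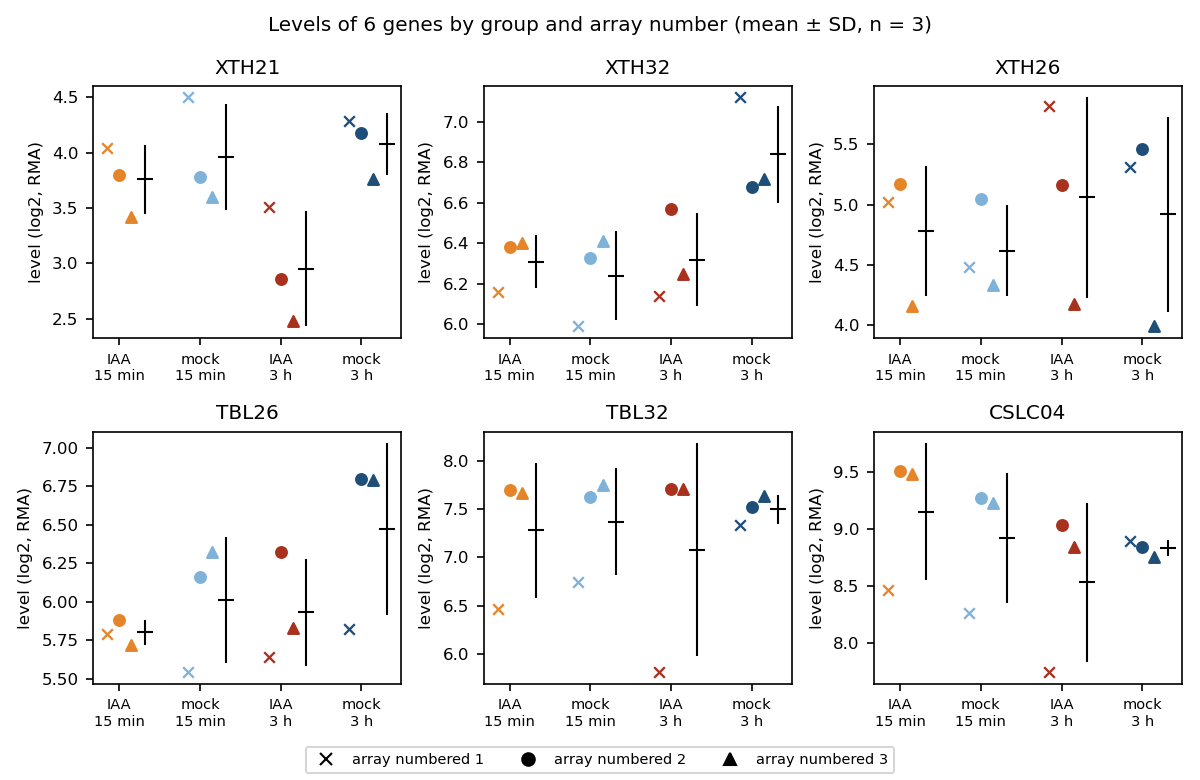
Levels (log2 RMA value) of 6 wall genes in the 4 groups, with symbols for the array number and, beside them, the mean with SD of the 3 arrays. For XTH21 the IAA 3 h arrays lie below all mock 3 h arrays, for XTH26 the arrays numbered 3 are the lowest in every group, and for TBL32 and CSLC04 the IAA 3 h array numbered 1 is the lowest of the 12.

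XTH32 belongs to the branch of the family that is predicted to hydrolyse xyloglucan. Its levels after 3 h were 6.14, 6.57 and 6.25 with IAA, against 7.12, 6.68 and 6.72 with mock, with no overlap. The change was -0.52 (SE 0.18, 95% interval -0.91 to -0.13), and it did not pass (limma adjusted p 0.712). At 15 min its levels were 6.16, 6.38 and 6.40 with IAA and 5.99, 6.33 and 6.41 with mock. The mock 3 h arrays were the group that stood apart, with a mean of 6.84 ± 0.24, while the means were 6.31 for IAA 15 min, 6.24 for mock 15 min and 6.32 for IAA 3 h. The mock array numbered 1 at 3 h was the highest of the 12, and without the arrays numbered 1 the change was -0.29.

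The other XTH genes gave smaller or less even values. XTH18 and XTH19 are neighbouring genes with no protein-coding gene between them, and XTH18, XTH19 and XTH20 are all known from roots. At 3 h XTH18 had 3.34, 2.87 and 2.84 with IAA against 3.02, 2.68 and 2.83 with mock, a change of 0.17 with a 95% interval of -0.39 to 0.73. The change of XTH19 was 0.19 (interval -0.26 to 0.64) and that of XTH20 was 0.10 (interval -0.46 to 0.66). All 3 were dim and their groups overlapped. The values of XTH18 and XTH19 were 0.10 and 0.33 without the arrays numbered 1, and that of XTH20 was -0.17.

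XTH26 is known from root hairs. It varied mainly with the array number: its mean over the 4 arrays numbered 3 was 4.16, against 5.16 for those numbered 1 and 5.21 for those numbered 2. Its levels with IAA were 5.82, 5.16 and 4.18 at 3 h, against 5.31, 5.46 and 3.99 with mock. The change was 0.13, with a wide 95% interval of -0.89 to 1.15, and it was -0.06 without the arrays numbered 1. EXPA18, also a root hair gene, was lowest on the array numbered 3 in every group, at 5.19 with IAA and 5.33 with mock at 15 min, and at 5.48 with IAA and 5.86 with mock at 3 h.

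XTH16 was the steadiest of the 40 genes, with levels within 0.41 over the 12 arrays. After 3 h it had 4.59, 4.65 and 4.58 with IAA against 4.47, 4.40 and 4.61 with mock. These overlapped, and the change was 0.12 with a 95% interval of -0.14 to 0.38. XTH29 had the highest change of the family, 0.23 (interval -0.20 to 0.67), at a level near background. XTH33, an XTH predicted to be held at the membrane, had a change of -0.08 (interval -0.66 to 0.50), and its difference was -0.52 for number 1 and 0.02 and 0.26 for numbers 2 and 3. The change was 0.15 for XTH29 and 0.14 for XTH33 without the arrays numbered 1. In the XTH family as a whole 3 of 9 genes were lower at 3 h, and the median was 0.12. That median was -0.03 after a further quantile normalisation and -0.05 with each array's slope on the mean level taken out, so its sign depended on the scaling.

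Of the TBL genes, 6 belong to the group known to acetylate xylan: TBL28, TBL30, TBL31, TBL32, TBL33 and TBL34. At 3 h 4 of the 6 were lower with IAA, with a median change of -0.26, and without the arrays numbered 1 it was 5 of 6 with a median of -0.18. None passed the test. TBL28 and TBL30 are neighbours with no protein-coding gene between them, and 18 protein-coding genes lie between TBL30 and TBL33 on the same chromosome. TBL28 had 4.64, 4.99 and 4.74 with IAA against 5.07, 5.30 and 5.19 with mock. Every IAA value lay below every mock value, and the change was -0.40 (SE 0.17, 95% interval -0.77 to -0.02, limma adjusted p 0.78).

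TBL33 had 4.45, 4.94 and 4.79 with IAA at 3 h, against 5.09, 5.13 and 5.06 with mock. Its groups did not overlap either, and the mock values lay within a narrow band with an SD of 0.03. The change was -0.36 (95% interval -0.78 to 0.06), or -0.22 without the arrays numbered 1. For TBL30 the change was -0.16 (interval -0.47 to 0.15), with differences of -0.20, -0.12 and -0.16. TBL32 owed its value to the arrays numbered 1. It had 5.81, 7.71 and 7.71 with IAA against 7.34, 7.52 and 7.63 with mock, so that the change of -0.42 over all arrays became 0.14 without the arrays numbered 1. TBL31 and TBL34, both dim, had changes of 0.08 each, and of -0.05 and -0.34 without the arrays numbered 1.

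The mannan acetyltransferases TBL23, TBL24, TBL25 and TBL26 had changes of 0.01, -0.06, -0.13 and -0.54 at 3 h, and of 0.04, 0.01, -0.13 and -0.72 without the arrays numbered 1. Only for TBL26 were all 3 same-numbered differences negative. TBL26 had 5.64, 6.32 and 5.83 with IAA against 5.82, 6.80 and 6.79 with mock, and 5.79, 5.88 and 5.72 with IAA against 5.54, 6.16 and 6.32 with mock at 15 min. Its 3 h groups overlapped through the mock array numbered 1. The change had a 95% interval of -1.17 to 0.09, with limma adjusted p of 0.78 over all arrays and 0.0919 without the arrays numbered 1. TBL25 is a bright gene that varied little, with 7.58, 7.77 and 7.98 with IAA against 7.72, 8.12 and 7.89 with mock.

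Among the remaining TBL genes TBL39 had the lowest value at 3 h. Its levels were 5.09, 6.33 and 6.22 with IAA against 6.45, 6.46 and 6.64 with mock. The groups did not overlap, and the change of -0.64 (SE 0.38, 95% interval -1.48 to 0.20) became -0.28 without the arrays numbered 1. TBL19 had 3.71, 3.76 and 3.47 with IAA against 3.93, 4.42 and 4.03 with mock, also without overlap, and a change of -0.48 (interval -1.05 to 0.09) that became -0.61 without those arrays. TBL45 had 7.89, 8.03 and 8.05 with IAA against 8.41, 8.40 and 8.21 with mock. Its 3 IAA values lay below its 3 mock values by a small step, with a change of -0.35 (interval -0.66 to -0.04, limma adjusted p 0.78). TBL38, reported to remove acetyl groups from pectin, had 5.89, 5.46 and 5.48 with IAA against 6.10, 5.90 and 5.87 with mock, a change of -0.34 (interval -0.69 to 0.00).

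The 5 genes TBL15, TBL20, TBL31, TBL42 and TBL43 are the dimmest of the TBL family, and all had positive values at 3 h over all arrays, of 0.45, 0.33, 0.08, 0.34 and 0.25. Each had its highest same-numbered difference on number 1. For TBL15 the levels were 3.33, 2.08 and 2.01 with IAA against 1.95, 2.02 and 2.11 with mock, so the IAA array numbered 1 alone was high. Without the arrays numbered 1 the changes of the 5 genes were -0.02, 0.04, -0.05, -0.09 and -0.19. TBL36, a bright gene, had 6.78, 8.15 and 8.13 with IAA against 7.08, 7.76 and 7.88 with mock. Its change was 0.11 over all arrays and 0.32 without the arrays numbered 1, with limma adjusted p of 0.927 and 0.206. The changes of TBL16, TBL18, TBL37 and TBL41 lay between -0.16 and -0.05, with 95% intervals that all included 0. The 4 values were -0.08, 0.13, -0.12 and -0.14 without the arrays numbered 1.

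All 4 CSLC genes and ATCSLC08, a CSLC gene listed under another symbol and so not among the 40, were lower with IAA at 3 h, with a median of -0.29 for the 5. Without the arrays numbered 1, 2 of the 5 were lower and the median was 0.04. None passed the test. CSLC04, the CSLC protein best known for making xyloglucan, had 7.74, 9.03 and 8.84 with IAA against 8.89, 8.84 and 8.75 with mock. The IAA array numbered 1 alone lay below the mock values, and the change of -0.29 (95% interval -1.13 to 0.55) became 0.14 without those arrays. CSLC6 had 5.79, 6.88 and 6.99 with IAA against 6.89, 7.10 and 7.05 with mock, a change of -0.46 that became -0.14. For CSLC5 the change of -0.20 became 0.04.

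CSLC12 was the CSLC gene whose value held without those arrays. Its levels were 3.40, 3.31 and 3.05 with IAA against 3.94, 3.94 and 3.36 with mock. The groups overlapped, since the mock array numbered 3 fell within the IAA values, but the 3 differences were -0.53, -0.63 and -0.31. The change was -0.49 (SE 0.19, 95% interval -0.91 to -0.07) and -0.47 without the arrays numbered 1, with limma adjusted p of 0.78 and 0.459. At 15 min it was 0.03 (interval -0.39 to 0.45).

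The other CSL genes belong to the mannan synthases (CSLA), to the CSLB group, whose product is not settled, and to CSLD. CSLB03 had 5.32, 6.32 and 6.38 with IAA at 3 h against 5.85, 6.67 and 6.68 with mock. The arrays numbered 1 were the lower ones in both groups, so that the groups overlapped while the 3 differences were -0.53, -0.35 and -0.30. The change was -0.40 (95% interval -1.09 to 0.29). CSLA03 had 4.20, 4.36 and 4.52 with IAA against 4.79, 4.48 and 4.62 with mock, and a change of -0.27 (interval -0.85 to 0.32) that became -0.10 without the arrays numbered 1. CSLA01, near background, had a change of 0.23, or of -0.13 without the arrays numbered 1. CSLD2, which is needed for normal root hairs, had a change of -0.07 (interval -0.70 to 0.55), or -0.02 without those arrays.

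Values at 3 h moved with the level of the gene. Of the 25 wall genes above the median level of all rows 22 were lower with IAA, against 62% of such rows. Of the 15 below it 3 were lower, against 19.3% of such rows. Without the arrays numbered 1 the counts were 17 of 25 and 10 of 15, against 50.3% and 49.7% of rows. With each array's slope on the mean level taken out, 20 of 25 and 7 of 15 were lower, and the shares of rows were not counted. The IAA 3 h array numbered 1 had the narrowest spread, 2.88, and its part in this pattern was not tested. Of the 40 genes, 14 had the opposite sign without the arrays numbered 1. The family values at 3 h moved as well: the median was -0.13 in place of -0.09 for TBL, 0.10 in place of 0.12 for XTH and -0.12 in place of -0.28 for CSL.

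**Figure D4:**
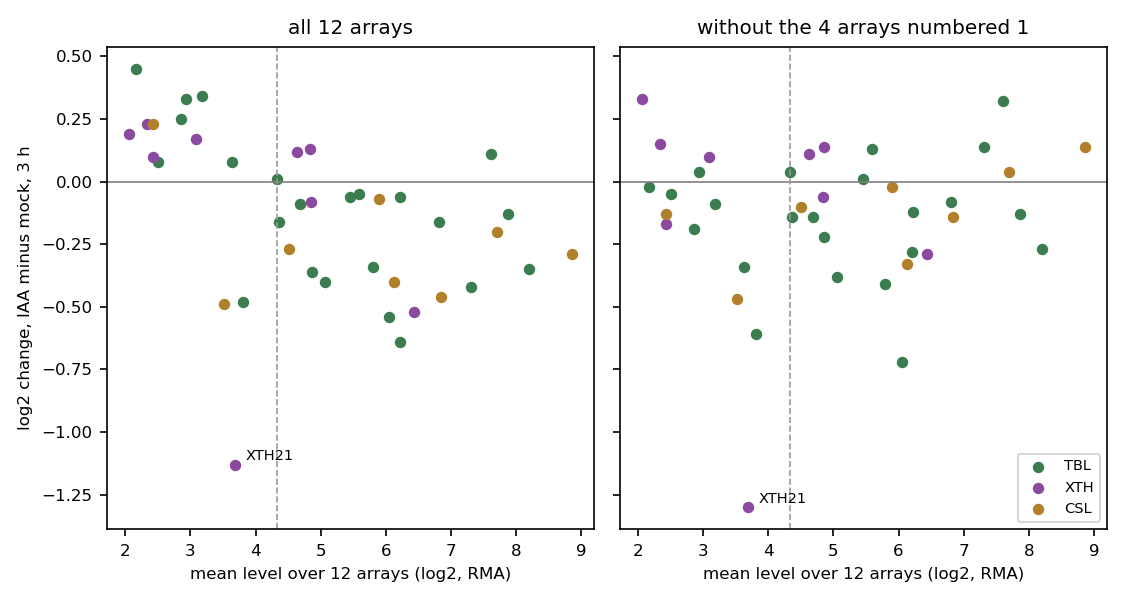
Log2 change at 3 h, IAA minus mock (y axis), against the mean level of each wall gene (x axis, log2 RMA value), over all 12 arrays (left) and without the 4 arrays numbered 1 (right). The dashed line is the median level of all tested rows, 4.33. On the left 22 of 25 genes to the right of the line lie below 0 and 12 of 15 to its left lie above 0, on the right 17 of 25 and 5 of 15, and XTH21 is lowest in both.

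At 15 min no wall gene stood out. None of the 40 passed with or without the block (limma), against 0.0% of rows without it and 0.0229% with it. The count at an unadjusted p under 0.05 was also 0, against 0.634% of rows. The changes ran from -0.23 for XTH29 to 0.29 for CSLA01, 21 of 40 were negative and the median was -0.02, while over all rows 49.9% were negative and the median was 0. The changes ran from -0.44 to 0.39 when the arrays numbered 1 were left out. No gene had groups that lay apart, against 2.11% of rows in the higher and 1.87% in the lower direction. CSLA01 had 2.85, 2.44 and 2.33 with IAA against 2.45, 2.11 and 2.20 with mock, and a 95% interval of -0.28 to 0.85. The SE of the 40 genes ran from 0.12 to 0.50, and for TBL32, the least even of them, the interval ran from -1.17 to 1.00.

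By family, the lowest and highest values at 15 min were -0.21 for TBL26 and 0.12 for TBL15, -0.23 for XTH29 and 0.19 for XTH19, and -0.13 for CSLA03 and 0.29 for CSLA01. The family medians were -0.05 for TBL, -0.01 for XTH and 0.10 for CSL, where 7 of 8 genes were positive. Without the arrays numbered 1 the CSL median was 0.04, and 3 of 8 genes were negative. The response at 3 h minus that at 15 min was negative for 26 of the 40 genes, against 43% of all rows and 60.4% of rows above the median level. It was negative for all 8 CSL genes, of which 2 lay below the median level, and their median difference was -0.37. Without the arrays numbered 1 it was negative for 27 of the 40, against 51.3% of all rows and 50.8% of rows above the median level. For the CSL genes it was then negative for 7 of 8, with a median of -0.14. None of the 40 passed the test of this difference (limma), against 0.0114% of rows without the block and 0.0171% with it. At an unadjusted p under 0.05 there were 2 of the 40, 5.0% against 1.9% of rows in either direction. These were XTH32 and TBL45, both negative. The values farthest below 0 were -0.92 for XTH21, -0.60 for TBL39, -0.59 for XTH32 and -0.53 for CSLB03, and those farthest above it were 0.47 for XTH29 and 0.42 for TBL42. Leaving out the arrays numbered 1 gave -1.22 for XTH21, -0.17 for TBL39, -0.30 for XTH32, -0.31 for CSLB03, 0.39 for XTH29 and -0.10 for TBL42.

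Mock seedlings at 3 h were also set against mock seedlings at 15 min, to show how the wall genes moved without hormone. None of the 40 passed (limma), against 0.0% of rows, and 1 had an unadjusted p under 0.05, 2.5% against 2.85% of rows. The median change was 0.11 and 16 of 40 were lower at 3 h, while over all rows 60.4% were lower and the median was -0.05. Without the arrays numbered 1 the median was 0.05 and 17 of 40 were lower, against 47.9% of rows and a median of 0.01. Groups lay apart in the higher direction for 4 genes, 10.0% against 3.99% of rows, and in the lower direction for 1, 2.5% against 7.1% of rows. XTH32 had the smallest p, with levels of 7.12, 6.68 and 6.72 at 3 h against 5.99, 6.33 and 6.41 at 15 min. Its change over time was 0.60 (SE 0.18, 95% interval 0.20 to 0.99, limma adjusted p 0.999), and 0.33 without the arrays numbered 1. TBL30 had a change over time of 0.26 (interval -0.06 to 0.57) and CSLC5 of 0.26 (interval -0.13 to 0.65), and without those arrays the values were 0.30 and 0.05. The mock 3 h arrays serve both here and in the 3 h response, so that a high mock 3 h value, as for XTH32 or TBL26, enters both with opposite signs.

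Few of the genes that work beside these families had a probe set paired with them alone. Of 28583 rows 11079 were paired with no gene, so the others may still have probes on the array. Of 12 genes of the cellulose synthase complex and its partners 5 were measured, of 14 xylan synthesis genes 4, of 5 acetylation partners 1, and of 11 xyloglucan synthesis and trimming genes and 13 pectin synthesis genes 0. None of the measured ones passed at either time. COB, which orients cellulose in growing cells, had a change of -0.18 at 3 h (95% interval -0.51 to 0.15), or -0.10 without the arrays numbered 1. AT3G03210, the gene measured from the acetylation partners, had changes of -0.12 at 15 min (interval -0.44 to 0.19) and of -0.02 at 3 h (interval -0.34 to 0.29), and without the arrays numbered 1 of -0.01 and -0.09. AT5G42860, from the cellulose synthase list, had a change of 0.10 at 15 min, or 0.03 without those arrays. IRX15, a xylan gene, was dim, with a mean of 2.98 over the 12 arrays. IRX15 had 2.59, 2.77 and 2.84 with IAA against 3.49, 3.08 and 3.04 with mock at 15 min. At 3 h it had 3.48, 3.16 and 2.96 with IAA against 2.69, 2.84 and 2.82 with mock. The highest values, 3.49 and 3.48, were on arrays numbered 1. Its groups lay apart at both times in opposite directions, with changes of -0.47 and 0.41, neither of which passed (limma adjusted p 1.0 and 0.78). Both were smaller without the arrays numbered 1, at -0.25 and 0.23.

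The families also include genes that the table lists under other symbols. AT2G31110 is TBL40, and had 5.27, 5.83 and 5.93 with IAA at 3 h against 6.28, 6.23 and 6.42 with mock. Every IAA value lay below every mock value, and the 3 differences were negative. The change was -0.63 (SE 0.20, 95% interval -1.08 to -0.19, limma adjusted p 0.581), and -0.45 without the arrays numbered 1. At 15 min it was -0.15 (interval -0.59 to 0.29). EXGT-A3, which is XTH27, had a change of -0.21 at 3 h over all arrays and of 0.08 without the arrays numbered 1.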

How the data were processed

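Log2 values were deposited by the authors, who used oligo and RMA per the submitters' processing notes, with no version given. They come from Affymetrix Gene 1.1 ST strips, per the series text, and were used as deposited. The genome build is not given in the sources used here, and coordinates are left out. Of 28583 rows, 16746 were paired with 1 gene, 758 with several and 11079 with none. RefSeq's gene table for TAIR10.1 updated the symbols (16601 matches by gene number, 96 by locus tag, 49 platform symbols kept). Protein and promoter sequences of these genes were not used here.

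Groups came from the sample titles. The labels' treatment protocol lists 30 min, 1 h and 3 h, which differs from the 15 min of titles and characteristics. The test was limma 3.58.1 (R 4.3.3) with the 4 groups in 1 fit and no block, over the 17504 rows with a gene name (8 residual and 3.52 prior degrees of freedom), at a Benjamini-Hochberg adjusted p under 0.05. Annotation, counts and figures used Python 3.11.15, pandas 2.3.3 and matplotlib 3.10.9. The fit without a block was tried on simulated data with independent noise and no effect of the array number. That trial does not bear on the fit with the block. The p-values measure the spread between arrays, whose number limits the precision.

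As a check of pairing, the deviations of IAA and mock arrays of the same number from their group means were correlated. At 15 min the values were 0.781, 0.65 and 0.639. At 3 h they were 0.127, 0.117 and 0.172. All exceed 0.1, so the numbers were taken as pairing IAA and mock arrays within a time. The value with the replicate block (6 residual degrees of freedom) is given where it changes a call. The arrays numbered 1 shared a narrower spread, and its part in these correlations was not tested. The block fits 1 effect per number for all 4 groups, so it also links the times. SEs and intervals of genes are from the fit without the block unless it is named, and so leave the pairing out. With the block the SE at 3 h was 0.21 in place of 0.38 for TBL39 and 0.16 in place of 0.31 for CSLB03. For XTH32 it was 0.18 in both fits. TBL39 and CSLB03 had unadjusted limma p of 0.0128 and 0.0337 with the block, although their intervals included 0. Neither passed after adjustment (limma adjusted p 0.403 and 0.449). Mock arrays of the same number had correlations across times of 0.0628, 0.0815 and 0.206. The labels do not say that a number marks a day. Alternatives were another normalisation, each array's slope on the mean level taken out, a filter on dim rows, all rows, 2 groups only, a trended prior, and arrays left out. The rule for named genes takes those called, the largest and smallest change of each family in each contrast, the highest and lowest level of each family, the smallest p of each list of partner genes and, for time, of each family. Other genes were described because they are members. The members, the gene lists and the groups by role were chosen with earlier results of these data known.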

Additional observations from a re-analysis of the deposited data

Results flagged for a closer look

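TBL30, a xylan acetyltransferase, had a response at 3 h minus that at 15 min of -0.24. Its same-numbered differences were all positive at 15 min and all negative at 3 h. At 15 min they were 0.04, 0.13 and 0.09, and at 3 h they were -0.20, -0.12 and -0.16. The levels were 4.28, 4.52 and 4.23 with IAA against 4.24, 4.39 and 4.13 with mock at 15 min, and 4.20, 4.39 and 4.47 with IAA against 4.40, 4.51 and 4.62 with mock at 3 h. The groups overlapped at both times. The limma test of the difference gave an SE of 0.20, a 95% interval of -0.68 to 0.20 and an adjusted p of 0.999, so the difference did not pass. IRX15, a dim xylan synthesis gene outside the 3 families, had a response at 3 h minus that at 15 min of 0.88. All its same-numbered differences were negative at 15 min and positive at 3 h. Its limma test of the difference gave an SE of 0.24, a 95% interval of 0.35 to 1.42 and an adjusted p of 0.999, or 0.758 with the block, and without the arrays numbered 1 the value was 0.48.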

How the results depend on the processing

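The number of wall genes called was 0 at 15 min, for the difference between times and for mock over time under all 12 fits that leave out 1 array and under the other alternatives run. At 3 h it was 0, also with 1 array left out, but 1 (XTH21) with the replicate block and 1 (XTH21) without the 4 arrays numbered 1. The change of XTH21 was -1.13 with the block, and no other wall gene's call at either time changed with it. For mock over time the same-numbered correlations were 0.0628, 0.0815 and 0.206, so the numbers are not taken as pairing there, and the block also gave 0 calls. The TBL median at 3 h, -0.09, was -0.13 without the rows below the lower quartile of level and -0.13 without the arrays numbered 1. The XTH median at 3 h, 0.12, was -0.03 after quantile normalisation, -0.05 with the array slope taken out and 0.02 without the rows below the lower quartile of level, so its sign is not settled. With 1 array left out, the medians at 15 min ran from -0.08 to 0.03 for TBL, from -0.02 to 0.04 for XTH and from -0.08 to 0.18 for CSL, and at 3 h from -0.20 to -0.03 for TBL, from -0.18 to 0.20 for XTH and from -0.42 to -0.07 for CSL. Over 20 alternatives 5 of the 40 genes kept their sign at 15 min and 17 at 3 h. The cause was not tested. The difference between times was not run with 2 groups only, as it needs 4. With 3 arrays a group and an SE of up to 0.50 without the block, changes of dim or uneven genes are poorly bounded.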
